A study of Mus musculus with 6 samples.

Results

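Leydig cells, which lie between the seminiferous tubules, make the androgens of the testis. Described here are 10 genes of that pathway in whole mouse testes with and without Hsf5, a heat shock factor gene expressed in spermatocytes. The genes are Lhcgr, Scarb1, Star, Cyp11a1, Hsd3b1, Hsd3b6, Cyp17a1, Hsd17b3, Insl3 and Nr5a1, taken by symbol from a table of 29333 genes, and all 10 were found. RNA was sequenced from testes at postnatal day 16. The knockout group was Hsf5-/-, and the control group was labelled wild type, although the design text also allows Hsf5+/- animals in it. The labels give no strain, no agent and no other allele, and do not describe how the allele was made. They list 3 samples per group, of which 2 per group had values here, namely knockout 1, knockout 3, control 1 and control 2. Whether the samples are separate animals is not stated, and the p-values therefore speak only of the spread among these libraries, which may be technical. In whole testis, fewer cells of a type and less RNA per cell cannot be told apart.

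Luteinizing hormone binds its receptor on the Leydig cell and raises cyclic AMP, which activates protein kinase A. The kinase acts within minutes on the delivery of cholesterol into mitochondria and, more slowly, on transcription of the steroid enzymes. Cholesterol is then cut to pregnenolone and converted through a short chain of oxidations into testosterone. In the mouse a fetal Leydig cell population is replaced by an adult one during the weeks after birth, so a testis of this age holds cells of more than 1 generation.

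The shallowest library, knockout 3, held 16209093 reads and the deepest, control 2, held 18557898. The unit throughout is the authors' normalized read count, the reads of a gene over a single size factor for its library. Hsf5 had 1926 and 1602 normalized reads in knockouts 1 and 3, against 2541 and 3147 in controls 1 and 2. Hsf5 fell (log2 fold change -0.69, SE 0.12, limma Benjamini-Hochberg adjusted p = 0.00716), but many reads remained in both knockout libraries. The call was lost without knockout 3 (adjusted p = 0.0741), without the filter on low values (0.0901) and without the mean-variance trend of limma (0.145). Of 17 pachytene spermatocyte markers, 16 were tested and those 16 fell, beside 13.5% of all tested genes. Their summed level was 18723 and 14739 in knockouts 1 and 3, against 56114 and 86384 in controls 1 and 2. Both groups therefore held 1 library with a higher sum of these markers than the other, knockout 1 and control 2. The difference was uneven between markers. The log2 difference of control 2 minus control 1 ran from 0.18 for Mybl1 to 2.92 for Ccna1. What set it was not tested.

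Proximal promoters are shown for the pair of 3-beta-hydroxysteroid dehydrogenase genes, which lie beside each other on chromosome 3 and whose knockout libraries differed to unlike degrees, and for Cyp11a1, the window that held a cyclic AMP response motif. Each is the 250 bases before the gene's start from RefSeq on build GRCm38.p6, whereas the reads were counted on mm39. The Hsd3b1 window is chr3:98859795-98860044 on the minus strand, the Hsd3b6 window chr3:98814444-98814693 on the minus strand, and the Cyp11a1 window chr9:57997774-57998023 on the plus strand. Capitals mark the motif, read here as CGTCA.
Hsd3b1: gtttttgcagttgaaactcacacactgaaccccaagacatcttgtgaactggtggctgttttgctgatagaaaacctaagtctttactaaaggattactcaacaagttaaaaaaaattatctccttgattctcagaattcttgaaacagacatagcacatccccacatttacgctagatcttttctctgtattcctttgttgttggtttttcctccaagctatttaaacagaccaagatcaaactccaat
Hsd3b6: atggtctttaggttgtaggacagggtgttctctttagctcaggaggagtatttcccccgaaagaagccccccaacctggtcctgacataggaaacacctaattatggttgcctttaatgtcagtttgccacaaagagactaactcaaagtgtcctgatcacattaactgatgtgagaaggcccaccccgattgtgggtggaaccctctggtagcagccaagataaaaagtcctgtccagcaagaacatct
Cyp11a1: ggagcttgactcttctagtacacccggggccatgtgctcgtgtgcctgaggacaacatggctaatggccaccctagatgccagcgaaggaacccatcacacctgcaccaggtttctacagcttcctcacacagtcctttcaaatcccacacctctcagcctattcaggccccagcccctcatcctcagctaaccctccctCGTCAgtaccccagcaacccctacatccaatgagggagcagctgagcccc

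The table of promoters held 7 windows of 6 of the genes, with 2 for Cyp11a1. Star, Cyp17a1, Scarb1 and Nr5a1 were not matched. On both strands, TGACG, the core of the cyclic AMP response element, occurred in 1 of the 7 windows, at position -50 from a Cyp11a1 start, and in 17.8% of 32851 windows of the same length. The NR5A1 site CAAGGNCA occurred in 0 of the 7 and in 5.53% of all windows, and TATAAA in 0 of the 7 and in 12.4% of all. These counts describe letters in short windows, and more distant elements were not searched. The Hsd3b1 and Hsd3b6 windows were identical at 118 of 267 aligned columns, or 44.2%.

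**Figure D1:**
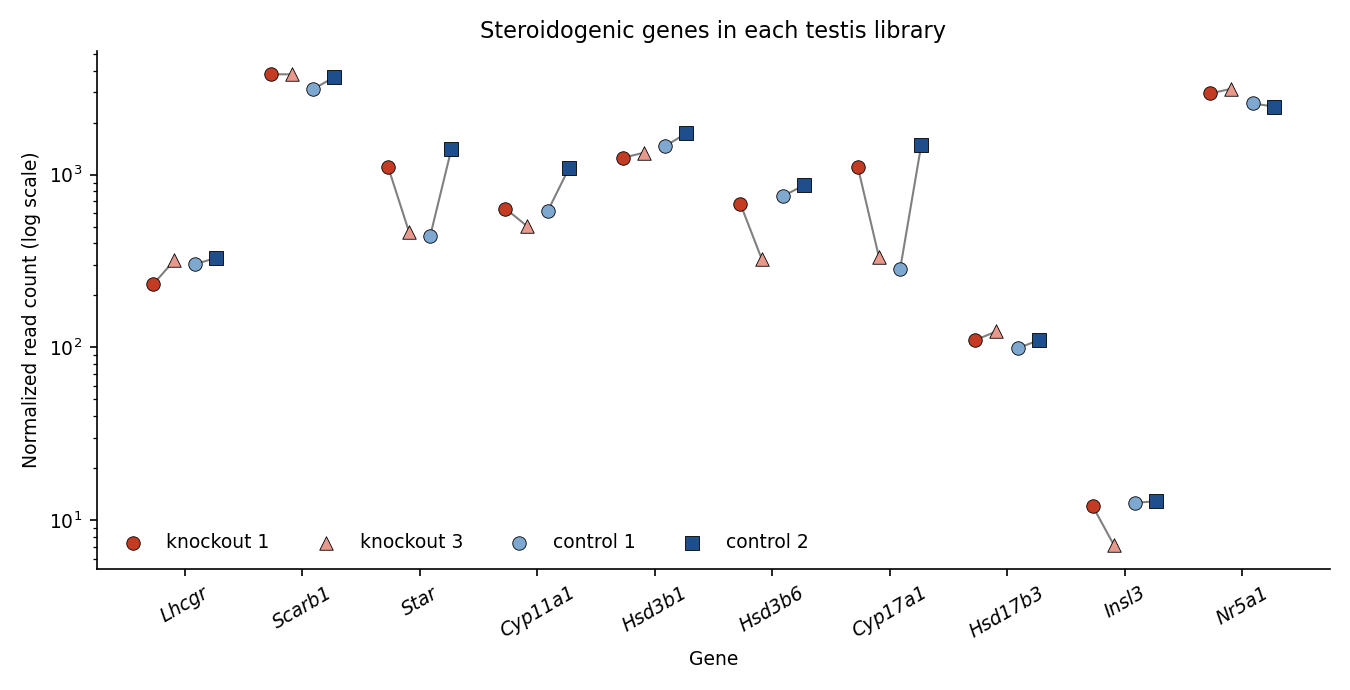
Normalized read count (log axis) of each gene in knockout 1, knockout 3, control 1 and control 2, in that order from left to right; each point is 1 library and grey lines join the libraries of a group. Star and Cyp17a1 are high in knockout 1 and control 2 and low in knockout 3 and control 1, while Scarb1 and Nr5a1 stay close together within each group.

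The spread within each group came before any difference between groups. Over 11895 genes with a mean of at least 100, the median absolute log2 difference was 0.11 between the knockout libraries and 0.13 between the controls. A difference over 2-fold was seen for 0.605% of these genes between the knockouts and for 2.08% between the controls. Star and Cyp17a1 exceeded 2-fold in both groups, Hsd3b6 exceeded it in the knockouts alone, and the other 7 genes stayed under it in both groups.

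Star encodes the steroidogenic acute regulatory protein, which moves cholesterol to the inner mitochondrial membrane and is the step that luteinizing hormone controls most quickly. Its normalized read count was 1112 in knockout 1 and 464 in knockout 3, against 444 in control 1 and 1408 in control 2. Knockout 1 held 2.40 times the level of knockout 3, with a 95% counting interval of 2.15 to 2.68. Control 2 held 3.17 times the level of control 1, with a counting interval of 2.85 to 3.53. Each group thus had a high and a low library, the pair of high libraries lay close to each other, and the groups overlapped fully. Of the 11895 genes, 99.7% differed less between the knockouts and 99.6% less between the controls. Such intervals cover counting error only.

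Cyp17a1 encodes the enzyme that turns progesterone into androstenedione through a hydroxylase and a lyase step. It had 1104 normalized reads in knockout 1 and 332 in knockout 3, against 284 in control 1 and 1493 in control 2. The ratio was 3.33 between knockouts 1 and 3 (95% counting interval 2.94 to 3.78) and 5.26 between controls 2 and 1 (4.64 to 5.98). As with Star, knockout 1 and control 2 were high, knockout 3 and control 1 were low, and the groups overlapped. Of the 11895 genes, 99.9% differed less between the knockouts and 99.9% less between the controls. Star and Cyp17a1 resembled each other more than either resembled any other of the 10 genes, at a Euclidean distance of 0.61 between their centred log2 levels over the 4 libraries.

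Cyp11a1 encodes the mitochondrial enzyme that cuts the cholesterol side chain, the committing step of steroid synthesis. It had 635 normalized reads in knockout 1 and 506 in knockout 3, against 616 in control 1 and 1088 in control 2. The order within groups was that of Star, but smaller in size, at 1.26-fold between the knockouts (95% counting interval 1.11 to 1.42) and 1.77-fold between the controls (1.60 to 1.95). Control 2 stood above the other 3 libraries, and knockout 1 lay above control 1, so the groups overlapped.

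Hsd3b1 and Hsd3b6 encode enzymes of the same step, the conversion of pregnenolone to progesterone. In the mouse Hsd3b6 is known from adult Leydig cells, and Hsd3b1 from fetal and adult ones. Hsd3b1 had 1251 and 1340 normalized reads in knockouts 1 and 3, against 1463 and 1734 in controls 1 and 2. Hsd3b6 had 676 and 327 normalized reads in knockouts 1 and 3, against 750 and 866 in controls 1 and 2. All knockout values lay below all control values for both genes. The knockout libraries differed 2.07-fold for Hsd3b6 (95% counting interval 1.81 to 2.37) and by a ratio of 0.933 for Hsd3b1, an interval of 0.863 to 1.01 that includes equality. Their controls were closer, with control 2 over control 1 at 1.15 for Hsd3b6 and 1.19 for Hsd3b1. Only knockout 3 was markedly low for Hsd3b6. The transcripts share some sequence: of the 1806 stretches of 50 bases in the Hsd3b1 transcript, 2.10% occur also in Hsd3b6, with a longest shared run of 72 bases and no shared stretch of 100 bases. In Hsd3b6, 16.0% of such stretches of 50 bases occur in another gene of the family. No source used here says how reads shared between copies were counted, so levels of both are uncertain to that degree.

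Lhcgr encodes the receptor for luteinizing hormone. It had 232 and 319 normalized reads in knockouts 1 and 3, against 303 and 330 in controls 1 and 2. Knockout 1 was the lowest library, at 0.727 times knockout 3 (95% counting interval 0.610 to 0.864), and control 2 was the highest. Star and Cyp17a1 were high in both of those libraries. The controls differed by a ratio of 1.09 (0.930 to 1.27), and the groups overlapped. Hsd17b3, which reduces androstenedione to testosterone, was sparse, with 110 and 124 normalized reads in knockouts 1 and 3, against 98.9 and 110 in controls 1 and 2. The 2 values of 110 were nearly equal, and the groups were separate only by that margin. Insl3, the Leydig cell peptide hormone of testis descent, was near the floor, with 12.0 and 7.17 normalized reads in knockouts 1 and 3, against 12.6 and 12.9 in controls 1 and 2. These were 12 and 7 reads in the knockouts and 13 and 13 in the controls. In the GENCODE M21 annotation 64.8% of the Insl3 exon bases also belong to Jak3 on the same strand, so even these reads cannot be given to Insl3 with certainty.

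Scarb1 encodes the receptor that takes up cholesterol from high-density lipoprotein, and is also made by Sertoli cells. It was the most abundant of the genes in reads, with 3806 normalized reads in each knockout library, against 3116 and 3654 in controls 1 and 2. Nr5a1 encodes steroidogenic factor 1, a nuclear receptor that regulates Star and the steroid enzymes and is expressed in both Leydig and Sertoli cells. It had 2948 and 3139 normalized reads in knockouts 1 and 3, against 2580 and 2478 in controls 1 and 2. For both genes the knockouts lay above the controls without overlap. The within-group differences of Nr5a1 were unremarkable: 41.3% of the 11895 genes differed less between the knockouts and 25.3% less between the controls.

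**Figure D2:**
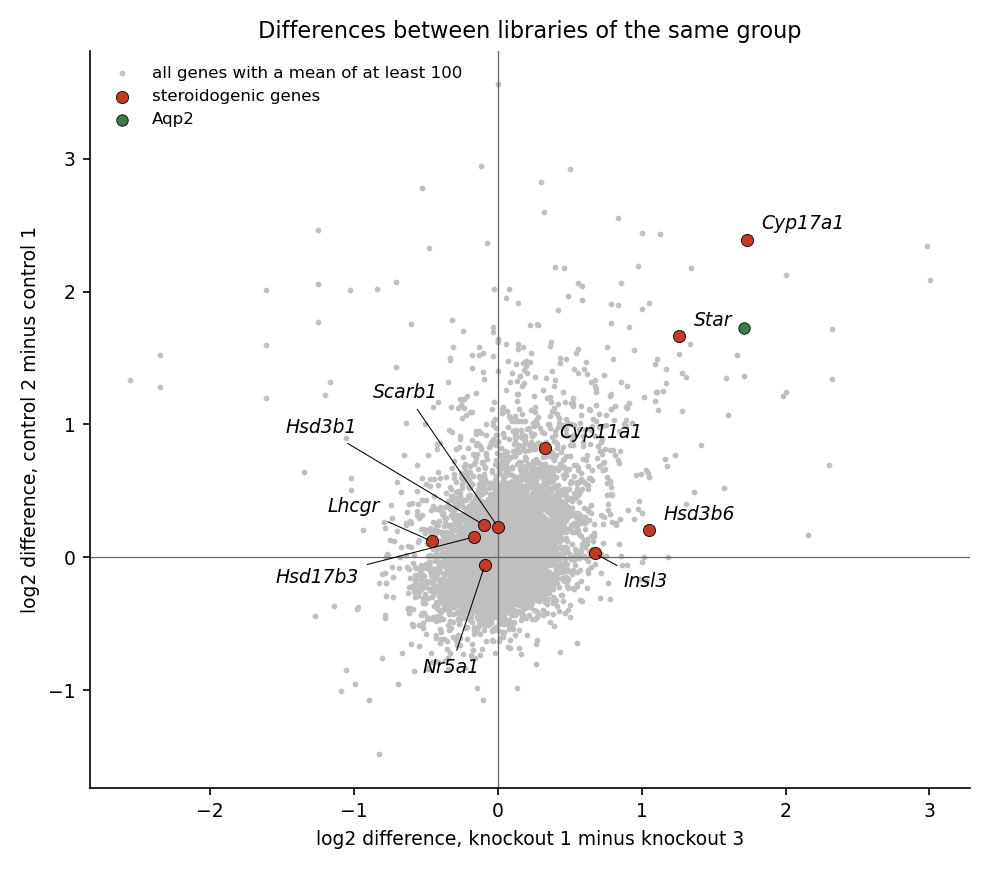
Each point is a gene, placed by its log2 difference between the knockout libraries (knockout 1 minus knockout 3, horizontal) and between the control libraries (control 2 minus control 1, vertical); grey points are the 11895 genes with a mean of at least 100. Cyp17a1 at 1.73 and 2.39 and Star at 1.26 and 1.66 lie far from the cloud, with Aqp2 beside them, and Scarb1, Nr5a1, Hsd3b1, Hsd17b3 and Lhcgr lie within it.

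Because Star and Cyp17a1 took the same order in both groups, the other genes with that order were counted, a choice made after these values were seen. Among the 11895 genes, 34 were over 2-fold higher both in knockout 1 than in knockout 3 and in control 2 than in control 1. Of those, 31 fell in the knockout, and the other 3, neither risen nor fallen, were Cyp17a1, Star and Aqp2, a water channel gene known from the kidney. Aqp2 had 238 and 71.7 normalized reads in knockouts 1 and 3, against 81.4 and 272 in controls 1 and 2. At a lower limit of 0.8 on the log2 scale in both groups, with a fold change between groups under 0.5 in size, the genes were Cyp17a1, Star, Aqp2, Pde4d and Fdx1. Fdx1 encodes ferredoxin, which feeds electrons to CYP11A1, and had 1396 and 754 normalized reads in knockouts 1 and 3, against 815 and 1674 in controls 1 and 2. Pde4d encodes a cyclic AMP phosphodiesterase, and had 329 and 172 normalized reads in knockouts 1 and 3, against 187 and 378 in controls 1 and 2. Both were high in the libraries where Star was high because that order was the condition of selection.

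Stc1, which encodes the secreted protein stanniocalcin 1, was among the genes with the reverse order at the same limits. It had 88.2 and 165 normalized reads in knockouts 1 and 3, against 173 and 81.3 in controls 1 and 2. Its low level in the libraries where Star was high was likewise the condition of selection. Mrap, the accessory protein of melanocortin receptors, has a mean under 100 and was outside that count, and had 100 and 25.6 normalized reads in knockouts 1 and 3, against 33.9 and 132 in controls 1 and 2. Its log2 difference was 1.93 in both groups.

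**Figure D3:**
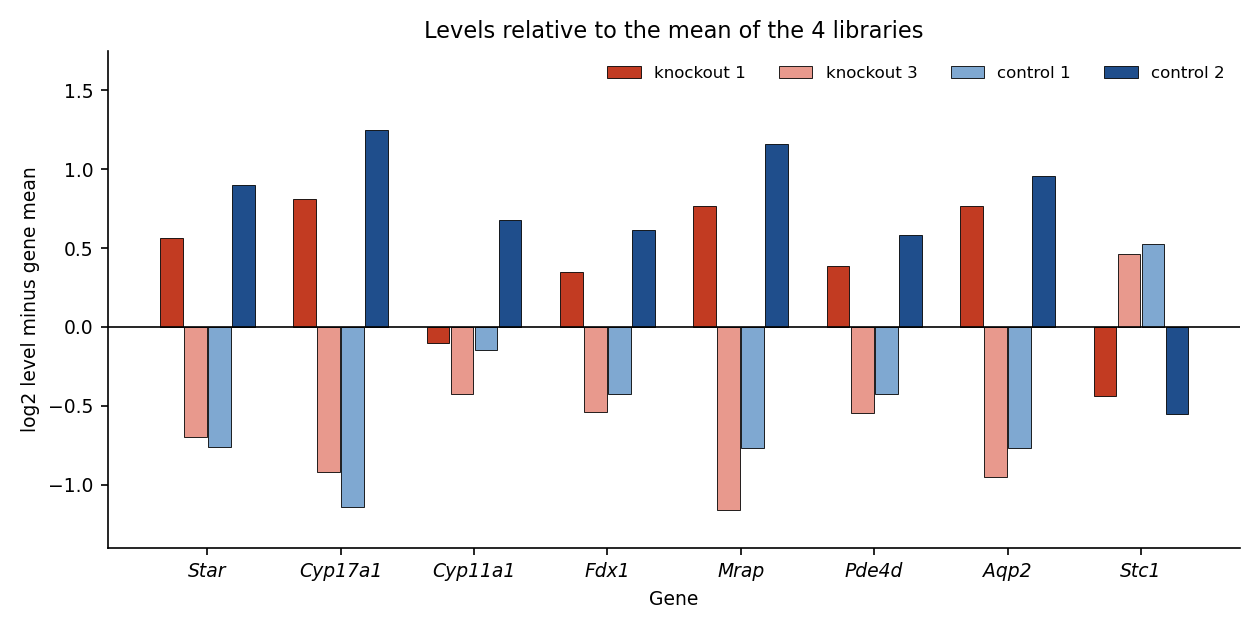
Bars give log2(value + 1) in knockout 1, knockout 3, control 1 and control 2 minus the mean of that gene over the 4 libraries, for 8 genes chosen after their values were seen apart from Star, Cyp17a1 and Cyp11a1. Star, Cyp17a1, Fdx1, Mrap, Pde4d and Aqp2 are above 0 in knockout 1 and control 2 and below 0 in knockout 3 and control 1, and Stc1 shows the opposite.

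Markers of other cells were set beside this order. The summed level of 14 Leydig cell markers other than the 10 genes was 18409 and 18027 in knockouts 1 and 3, against 19629 and 19657 in controls 1 and 2. Aldh1a1, a retinaldehyde dehydrogenase, made up 64.6% to 71.4% of these sums. The other 13 markers summed to 5271 and 5384 in knockouts 1 and 3, against 5977 and 6952 in controls 1 and 2, with control 2 the highest library. Gramd1b, among these 13, had 1191 and 1200 in knockouts 1 and 3, against 2020 and 2805 in controls 1 and 2. Most of the difference between the groups in that sum lay in Gramd1b. The summed level of 5 adrenal cortex markers found in the table was 155 and 67.6 in knockouts 1 and 3, against 78.5 and 199 in controls 1 and 2, the order of Star, and Mrap and Akr1b7 were its most abundant members. Akr1b7, an aldose reductase relative, had 44.1 and 25.6 normalized reads in knockouts 1 and 3, against 18.4 and 40.7 in controls 1 and 2, and so took that order too. Cyp21a1, the 21-hydroxylase that defines adrenal cortex, was near 0, with 1.002 and 4.10 normalized reads in knockouts 1 and 3, against 5.82 and 4.96 in controls 1 and 2. Cyp11b1, the adrenal enzyme of corticosterone synthesis, had 7.02 and 9.22 normalized reads in knockouts 1 and 3, against 20.4 and 16.9 in controls 1 and 2, and did not take the order of Star. The 14 macrophage markers summed to 4613 and 3881 in knockouts 1 and 3, against 3921 and 4181 in controls 1 and 2. The pachytene marker sum given above also had the order of Star. The part of spermatocyte, macrophage and adrenal RNA in the spread of Star and Cyp17a1 was not tested.

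Levels were compared between genes per kilobase of exon in GENCODE M21, as means over the 4 libraries. Hsd3b1 was highest at 780 normalized reads per kilobase, then Nr5a1 at 657, Scarb1 at 423, Hsd3b6 at 363, Cyp17a1 at 290, Star at 208, Cyp11a1 at 148, Hsd17b3 at 79.6, Lhcgr at 38.7 and Insl3 at 17.9. The ranges over libraries overlapped between each gene and the next for Hsd3b1 and Nr5a1, and along the run from Scarb1 through Hsd3b6, Cyp17a1 and Star to Cyp11a1. The steps from Nr5a1 to Scarb1, from Cyp11a1 to Hsd17b3, from Hsd17b3 to Lhcgr and from Lhcgr to Insl3 were clear of overlap. Insl3 was thus the lowest over its full exon length, but 64.8% of those bases also belong to Jak3. Its rank and the step from Lhcgr therefore rest on that length and are uncertain. For Scarb1 and Nr5a1, reads of Leydig and Sertoli cells cannot be told apart.

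Knockout and control testes were then compared, to see how loss of Hsf5 bears on these genes. The limma fit used log2(value + 1) for 17480 genes with a mean of at least 10, and calls were made at an adjusted p (Benjamini-Hochberg over all of them) below 0.05. All 10 genes passed that filter, Insl3 only narrowly. Of the 10, 1 rose and 0 fell by limma, while 3.28% of all tested genes rose and 13.5% fell, 16.8% in all. At an unadjusted limma p under 0.05, 2 of the 10 were lower and 1 was higher, beside 20.1% and 10.8% of all tested genes. The edgeR test called 1 higher and 0 lower, beside 2.94% and 12.3% of all genes, and DESeq2 called 0 either way, beside 2.38% and 11.7%. The median log2 fold change of the 10 was -0.18, beside 0.01 over all tested genes. It was -0.47 without knockout 1, 0.00053 without knockout 3, -0.43 without control 1 and 0.06 without control 2. The groups were free of overlap for 6 of the 10, 3 with the knockouts above and 3 below, and for 61.7% of all tested genes, 29.8% above and 31.9% below. The share among the 10 is near that background.

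**Figure D4:**
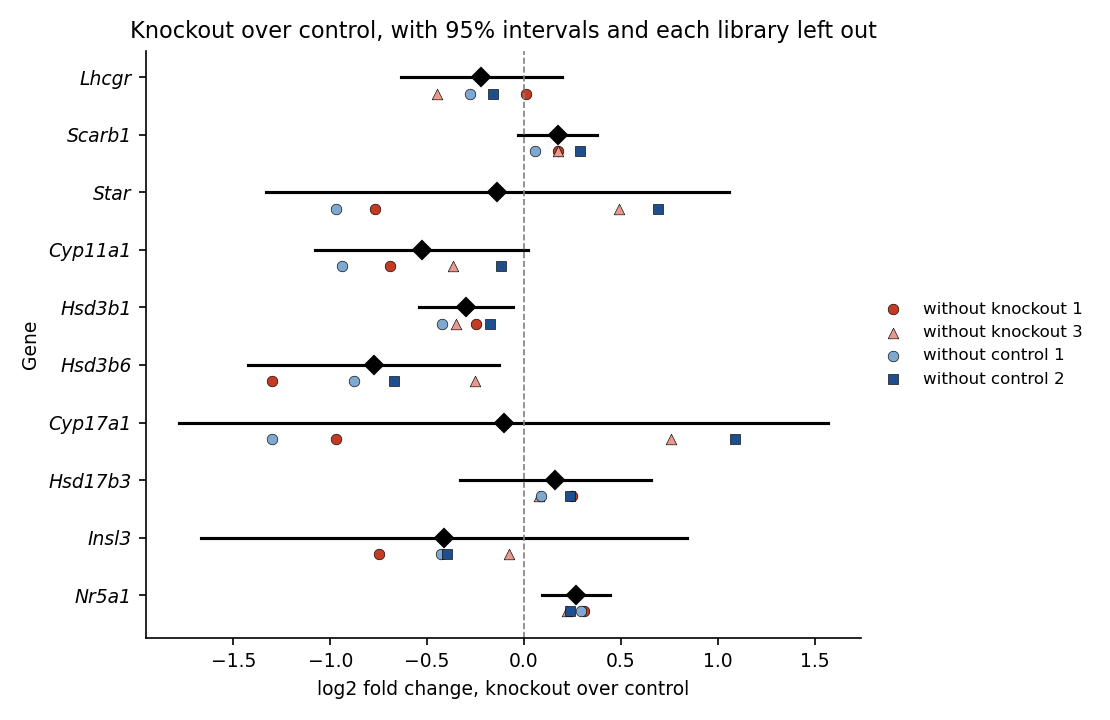
Black diamonds give the limma log2 fold change of knockout over control for each gene with its 95% interval; the coloured symbols below each give the same with 1 library left out. Cyp17a1, Insl3 and Star have the widest intervals. Cyp17a1 and Star change side of 0 with the library left out, as does Lhcgr, barely, at 0.0092 without knockout 1. Only the interval of Nr5a1 among the genes above 0 clears 0.

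Nr5a1 was the gene that rose. It averaged 3044 ± 135 normalized reads in knockouts and 2529 ± 72.0 in controls (SD, n = 2 each), a fold of 1.20 and a log2 fold change of 0.27 (SE 0.076, limma Benjamini-Hochberg adjusted p = 0.0469). The call was lost without any 1 library, with limma adjusted p between 0.0949 and 0.299, by DESeq2 (adjusted p = 0.0569), without the filter on low values (limma adjusted p = 0.121) and without the trend (0.223), and the authors' deposited table gives an adjusted p of 0.0585. Scaled to the summed Sertoli cell markers, which were themselves higher in the knockouts, its log2 fold change was 0.05 (limma adjusted p = 0.767). Scarb1, the other member known from Sertoli cells, averaged 3806 ± 0.513 in knockouts and 3385 ± 380 in controls, a log2 fold change of 0.17 (95% interval -0.03 to 0.38, limma adjusted p = 0.228). It changed sign to -0.04 under the Sertoli scaling and was called higher when libraries were scaled to their totals (log2 fold change 0.28, limma adjusted p = 0.0426), a scaling under which 8.65% of all genes were called higher.

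Among the genes below their controls, Hsd3b6 averaged 502 ± 247 in knockouts and 808 ± 81.5 in controls, a log2 fold change of -0.78 (95% interval -1.42 to -0.13, limma adjusted p = 0.101). That value rested on knockout 3. Without knockout 1 it was -1.30 (limma adjusted p = 0.00352, with 8.84% of all genes called lower), and without knockout 3 it was -0.25 (adjusted p = 0.44). Hsd3b1 averaged 1295 ± 63.0 in knockouts and 1599 ± 192 in controls, a log2 fold change of -0.30 (95% interval -0.54 to -0.06, limma adjusted p = 0.0915). Neither passed the test over all genes, although both were called lower under the Sertoli scaling, with limma adjusted p of 0.0208 for Hsd3b1 and 0.0316 for Hsd3b6, where 23.8% of all genes were called lower. Cyp11a1 averaged 571 ± 91.5 in knockouts and 852 ± 334 in controls, a log2 fold change of -0.53 (95% interval -1.08 to 0.02, limma adjusted p = 0.177). It was called lower without control 1 (log2 fold change -0.94, limma adjusted p = 0.0331), where 11.7% of all genes were, whereas without control 2 the value was -0.12 (limma adjusted p = 0.744).

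For Star and Cyp17a1 the spread within groups exceeded the difference between them. Star averaged 788 ± 458 in knockouts and 926 ± 682 in controls, a log2 fold change of -0.14 (SE 0.52, limma adjusted p = 0.889). Its 95% interval ran from -1.33 to 1.06, so it holds falls and rises of more than 2-fold. Cyp17a1 averaged 718 ± 546 in knockouts and 889 ± 855 in controls, a log2 fold change of -0.11 (SE 0.73, 95% interval -1.78 to 1.57, limma adjusted p = 0.944). Which library was left out set the sign. Without knockout 3 the log2 fold change was 0.49 for Star and 0.76 for Cyp17a1, and without control 1 it was -0.97 for Star and -1.30 for Cyp17a1. None of these 4 values was called. Lhcgr had a log2 fold change of -0.22 (95% interval -0.64 to 0.20, limma adjusted p = 0.459), Hsd17b3 of 0.16 (-0.33 to 0.65, adjusted p = 0.657) and Insl3 of -0.41 (-1.67 to 0.84, adjusted p = 0.658). None of these 3 was called, and their intervals hold 0.

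The rest of the steroid pathway was described from lists of its genes. For this and each later list, the counts stand beside 3.28% of all tested genes that rose and 13.5% that fell. Of the genes named as called in these lists, limma called none without the mean-variance trend, and Cyp19a1 and Acot7 alone without the filter on low values. Of 33 other steroid enzymes and electron carriers, 23 were in the table and 19 were tested; 0 rose and 1 fell, and the median of log2 fold changes was 0.14. At an unadjusted limma p under 0.05, 2 of the 19 were higher, and neither edgeR nor DESeq2 called any of the list higher. The gene that fell was Cyp19a1, the aromatase that makes estrogen from androgen and is known in rodents from germ cells as well as somatic cells. It had 11.02 and 10.2 normalized reads in knockouts 1 and 3, against 66.9 and 95.2 in controls 1 and 2, a log2 fold change of -2.80 (SE 0.38, limma Benjamini-Hochberg adjusted p = 0.00166). The groups were far apart, and the call held without each library in turn. Cyp19a1 also had the direction of the pachytene marker sum and, like that sum, was higher in control 2 than in control 1. Its knockout values of 11.02 and 10.2 were too close to show an order. The part of the pachytene markers was not tested.

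Of 21 genes of cholesterol delivery to mitochondria, 20 were tested, of which 1 rose and 2 fell, and the median of log2 fold changes was 0.09. Dbi, an acyl-CoA binding protein and ligand of the mitochondrial translocator protein, had 2778 and 2389 normalized reads in knockouts 1 and 3, against 1891 and 1815 in controls 1 and 2, and rose (log2 fold change 0.48, limma adjusted p = 0.0101). That call was lost without knockout 1 (adjusted p = 0.0938) and without control 1 (adjusted p = 0.0607), and under the Sertoli scaling (adjusted p = 0.0768). Stard6, a relative of Star known from male germ cells, had 253 and 192 normalized reads in knockouts 1 and 3, against 568 and 1037 in controls 1 and 2, and fell (log2 fold change -1.80, limma adjusted p = 0.00259). Acot7, an acyl-CoA thioesterase, had 1921 and 1609 normalized reads in knockouts 1 and 3, against 3437 and 4625 in controls 1 and 2, and fell (log2 fold change -1.18, limma adjusted p = 0.00103). Both falls were called without each library in turn, and both took the direction of the pachytene markers, whose part in them was not tested.

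Between the luteinizing hormone receptor and its kinase, 28 genes were listed and 26 tested, of which 2 rose and 2 fell, and the median of log2 fold changes was 0.08. Gnas, the stimulatory G protein subunit, had 426 and 517 normalized reads in knockouts 1 and 3, against 276 and 200 in controls 1 and 2, and rose (log2 fold change 0.99, limma adjusted p = 0.00843), a call lost without knockout 3 (adjusted p = 0.101). Prkar2a, a regulatory subunit of protein kinase A, rose (log2 fold change 0.38, limma adjusted p = 0.0392), a call lost without any 1 library and under the Sertoli scaling (adjusted p = 0.386). Pde8a, a cyclic AMP phosphodiesterase of Leydig cells, had 1231 and 991 normalized reads in knockouts 1 and 3, against 2278 and 3338 in controls 1 and 2, and fell (log2 fold change -1.32, limma adjusted p = 0.00153), and the call held without each library in turn. Its levels had the direction and the library order of the pachytene marker sum, whose part in the fall was not tested. Rxfp2, the receptor for INSL3, named after its values were seen, had 4.01 and 12.3 normalized reads in knockouts 1 and 3, against 25.2 and 66.4 in controls 1 and 2, and fell (log2 fold change -2.37, limma adjusted p = 0.0401). Rxfp2 was no longer called without any 1 library, and its log2 fold change was -1.66 without knockout 1, -3.07 without knockout 3, -3.05 without control 1 and -1.68 without control 2.

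Of 34 regulators of steroidogenic genes, 33 were tested, of which 3 rose and 0 fell, and the median of log2 fold changes was 0.24. At an unadjusted limma p under 0.05, 10 were higher and 1 was lower, where 10.8% of all tested genes were higher and 20.1% lower, and edgeR and DESeq2 each called 3 higher and 0 lower. The genes that rose were Zfpm1, a cofactor of GATA factors, Jun, a subunit of AP-1, and Cited2, a coactivator of WT1 in gonad development, with log2 fold changes of 0.43, 0.70 and 0.29 and limma adjusted p of 0.0167, 0.0273 and 0.0327. Of 30 growth factor signals to Leydig cells, all tested, 3 rose and 0 fell, and the median of log2 fold changes was 0.17. These were Igf1r, the insulin-like growth factor receptor, Inhbb, an activin and inhibin subunit, and Kitl, the ligand of KIT, with log2 fold changes of 0.38, 0.35 and 0.27 and limma adjusted p of 0.0273, 0.0164 and 0.0389. No growth factor gene was lower at an unadjusted limma p under 0.05, and edgeR and DESeq2 called 0 lower. Each of these 6 calls was lost without at least 2 of the 4 libraries, with limma adjusted p up to 0.256 for Kitl, and under the Sertoli scaling.

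**Figure D5:**
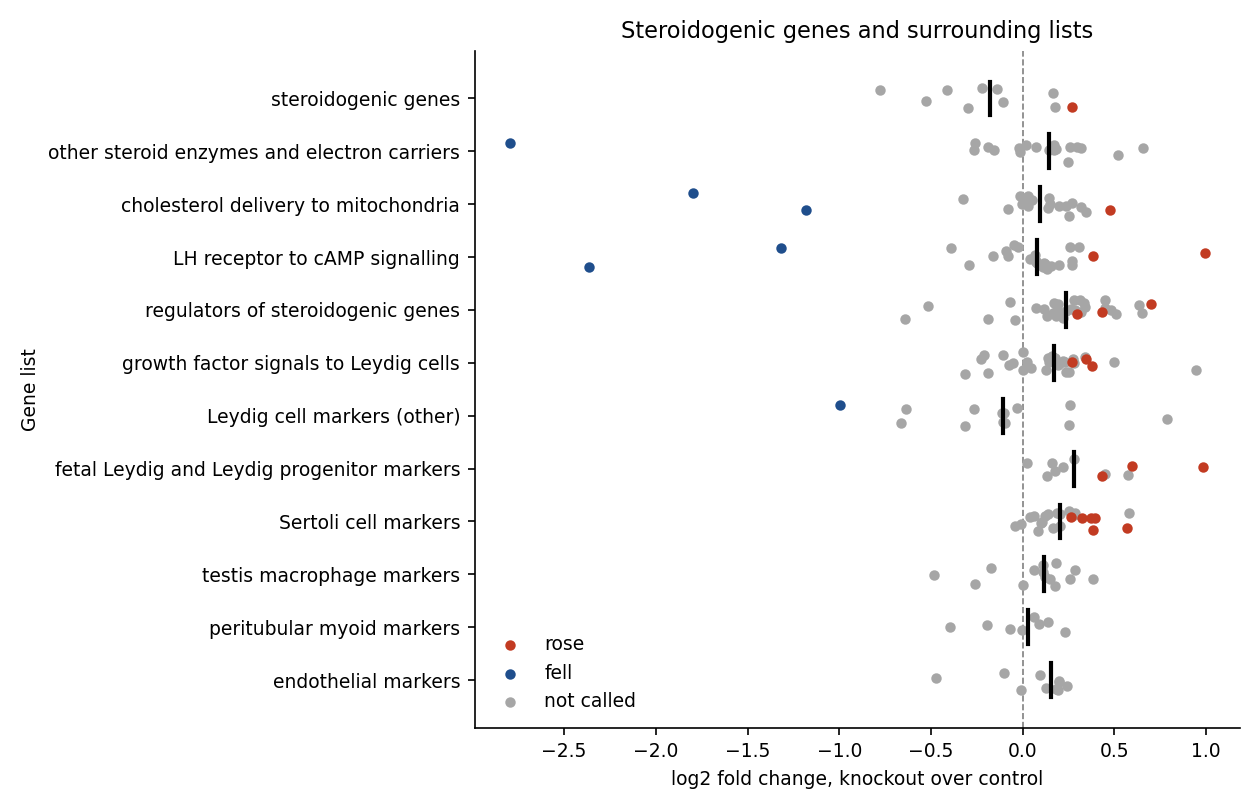
Each point is a tested gene, placed by its log2 fold change of knockout over control, in 12 lists; red genes rose, blue genes fell, grey genes were not called, and the black bar is the list median. The steroidogenic genes have a median of -0.18, the fetal Leydig and progenitor markers of 0.28 and the Sertoli cell markers of 0.20.

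The other Leydig cell markers were 14, of which 13 were tested; 0 rose and 1 fell, and the median of log2 fold changes was -0.11. At an unadjusted limma p under 0.05, 1 was higher, and edgeR and DESeq2 called 0 higher. Gramd1b, a sterol transfer protein, had 1191 and 1200 normalized reads in knockouts 1 and 3, against 2020 and 2805 in controls 1 and 2, and fell (log2 fold change -0.99, limma adjusted p = 0.0022), a call that held without each library in turn. Gramd1b took the direction of the pachytene markers and, as they were, was higher in control 2 than in control 1, and their part in its fall was not tested. Of 12 fetal Leydig and progenitor markers, 11 were tested, of which 3 rose and 0 fell, beside 3.28% and 13.5% of all tested genes. All 11 log2 fold changes were above 0, as were those of 9032 of the 17480 tested genes. The list median was 0.28 on the log2 scale. No gene of that list was lower at an unadjusted limma p under 0.05, nor called lower by edgeR or DESeq2. Dlk1, a membrane protein of immature Leydig cells, had 835 and 1245 normalized reads in knockouts 1 and 3, against 528 and 502 in controls 1 and 2, and rose (log2 fold change 0.98, limma adjusted p = 0.00628). The call was lost without control 1 (adjusted p = 0.0707). Igfbp3, which binds insulin-like growth factors, and Mgp, a matrix protein, rose with log2 fold changes of 0.59 and 0.43 (limma adjusted p = 0.0152 and 0.0124). Both calls were lost without knockout 1, knockout 3 or control 1, with limma adjusted p up to 0.141 for Igfbp3 and 0.117 for Mgp, and under the Sertoli scaling.

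Sertoli cell markers moved with these rises. Of 23, all tested, 6 rose and 0 fell, beside 3.28% and 13.5% of all tested genes, and the median of log2 fold changes was 0.20. Their summed level was 180656 and 171418 in knockouts 1 and 3, against 155342 and 147370 in controls 1 and 2. Clu was the most abundant, with 72450 and 65289 in knockouts 1 and 3, against 61661 and 57954 in controls 1 and 2. The Sertoli scaling used the summed level, so abundant markers weighed most in it. By limma, Aard rose by 0.40, Cldn11 by 0.32 and Defb36 by 0.57 on the log2 scale (adjusted p = 0.00549, 0.0116 and 0.00861). None of the 23 was lower at an unadjusted limma p under 0.05, and edgeR and DESeq2 called 0 lower. Each of those 3 calls was lost without at least 1 library, and that of Cldn11 without any 1 of the 4. Scaled to the Sertoli markers, the median over all tested genes moved to -0.20. The part of a larger share of Sertoli RNA in the rises of Nr5a1 and the lists above was not tested beyond that scaling.

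By the rule for likeness, the genes outside the lists whose levels lay closest to the mean profile of the 10 genes were Adgrf5, an adhesion receptor, Wdr5b, Atxn7l1, Zfp691, a zinc finger protein, and Gpank1. Their Euclidean distances on the centred log2 scale were 0.11 to 0.15, over 4 libraries and among 11186 genes. That mean profile was 0.12 in knockout 1 and -0.31 in knockout 3, against -0.20 in control 1 and 0.38 in control 2, and Star and Cyp17a1 deviated most among the 10. Compared with Star alone, a choice made after the values were seen, Aqp2 was closest at 0.33 and Tnfaip2 next at 0.68, and the same pair came first for Cyp17a1 at 0.48 and 1.25.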

How the data were processed

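Total RNA went into libraries built with NEBNext Ultra RNA reagents, per the labels' protocols. Tools named in the submitters' processing notes are Bowtie2, cutadapt, DESeq2 and featureCounts, with genome mm39; no source used here gives their versions, roles, strand setting or annotation. The authors deposited, per the file headers, a signal per library (normalized read counts), a log2 fold change, a test statistic score, p-values and adjusted p-values. Every library value was a whole multiple of 1 unit within 1e-06, which gave back whole reads. Since the values are normalized, the test was limma 3.58.1 (R 4.3.3) with a mean-variance trend on log2(value + 1). It covered genes with a mean of at least 10, with Benjamini-Hochberg adjustment over 17480 genes. The test was first run on simulated data. Spread beyond counting error was the same small value for every simulated gene, so the wide spread of Star and Cyp17a1 was not simulated. The recovered reads were also tested with edgeR 4.0.16 and DESeq2 1.42.0. Variance rested on 6.30 prior and 2 residual degrees of freedom. The pseudocount of 1 shrinks fold changes of genes with few reads. The genes and lists were chosen with earlier results of these data known. Named genes were the 10, up to 3 called genes with the smallest adjusted p per list, and the 5 genes nearest in profile. The adrenal list had none called, and its most abundant members, Mrap and Akr1b7, were named. Other lists with none called, and blood and germ cell lists, are given as counts. Any other named genes were chosen after their values were seen. Exon lengths and overlaps came from GENCODE M21 on GRCm38. Knockout 2 and control 3 were not analysed here.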

Additional observations from a re-analysis of the deposited data

How the results depend on the processing

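The number of the 10 genes called higher, 1 in the limma test described, was 2 under library totals and 0 under the Sertoli scaling, without a filter, without the trend and by DESeq2, and ranged from 0 to 0 with a library left out. The number called lower, 0, was 2 under the Sertoli scaling and ranged from 0 to 1 with a library left out. Over all genes, 573 were called higher, against 1513 under library totals, 71 under the Sertoli scaling, 37 without a filter and 0 without the trend (1456 at an unadjusted limma p under 0.05), with a range of 71 to 308 with a library left out. Of all genes 2366 were called lower, against 4163, 815 and 40 under the Sertoli scaling, without a filter and without the trend, with a range of 1086 to 2054 with a library left out. The sign of the log2 fold change reversed for Cyp17a1 under library totals (0.0035), for Hsd17b3 (-0.053) and Scarb1 (-0.044) under the Sertoli scaling, and with a library left out for Star (range -0.97 to 0.69), Cyp17a1 (-1.30 to 1.09), Lhcgr (-0.45 to 0.0092), and for the adrenal markers Akr1b7 (-0.27 to 0.83) and Mrap (-1.36 to 0.57). The causes were not tested. With a library left out, the lone library of a group is assumed to vary like the other group. The median over all genes shifted to 0.12 under library totals and -0.20 under the Sertoli scaling. Of the alternatives for the 10 genes, 118 kept direction and side of the threshold, 5 gained a call, 8 lost one and 8 reversed. No paired analysis was possible because only replicate number 1 occurs in both groups. Values near the floor, as for Insl3, limit what can be seen.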

Other observations

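Other cells of the testis interstitium showed few changes. Of the 8 peritubular myoid, 14 macrophage and 10 endothelial markers tested, 0 rose and 0 fell by limma, edgeR or DESeq2; at an unadjusted limma p under 0.05, 1 myoid marker was higher and 1 macrophage marker was lower. Their median log2 fold changes were 0.03, 0.12 and 0.15. Of 5 red blood cell markers tested, 3 rose and 0 fell by limma, beside 3.28% and 13.5% of all tested genes. For that list edgeR called 3 higher and DESeq2 2, and the median was 0.73. Its summed level was 1858 and 2323 in knockouts 1 and 3, against 1454 and 1207 in controls 1 and 2. Of 14 spermatogonia markers tested, 2 rose and 1 fell by limma, with a median of 0.20. For these, edgeR called 2 higher and 1 lower, whereas DESeq2 called 0 higher and 1 lower. Of 10 epididymis markers 5 were in the table, none of which reached a mean of 10, and their summed level was 5.01 and 10.2 in knockouts 1 and 3, against 9.70 and 36.7 in controls 1 and 2.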
